A study of Mus musculus with 4 samples.

Results

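Glycogen breakdown in muscle was followed here through 4 genes out of the 1000 in the deposited table, namely the glycogen phosphorylase gene Pygm (NM_011224), the phosphorylase kinase subunit genes Phkg1 (NM_011079) and Phkb (NM_199446), and Ppp1r3a (NM_080464), which encodes a subunit that brings protein phosphatase 1 to glycogen. They were chosen by name for these roles, and all 4 are listed with reads in all 4 libraries. The libraries came from frozen tibialis anterior, a leg muscle, of mice of the Dmd Dup2 model, in which exon 2 of the dystrophin gene is duplicated. One condition is Dup2 muscle treated with scAAV9.U7-ACCA, an AAV9 vector (a virus used for gene delivery) built to make the transcript skip an exon by way of a U7 small nuclear RNA, and the other is untreated Dup2 muscle. Both conditions carry the Dup2 allele, so the comparison is with untreated mutant muscle and not with healthy muscle. Each condition gave 1 mRNA library and 1 library of ribosome footprints, the mRNA fragments that ribosomes cover. The labels used here give neither the number of animals per library nor their age, sex, dose or time after treatment.

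Muscle stores glucose as glycogen, and glycogen phosphorylase releases it as glucose-1-phosphate during contraction. Phosphorylase is switched on when phosphorylase kinase, a complex of alpha, beta, gamma and calmodulin subunits that responds to calcium and to protein kinase A, phosphorylates it. Protein phosphatase 1, held on the glycogen particle by targeting subunits such as the one from Ppp1r3a, removes those phosphates and also activates glycogen synthase. In people, loss of the muscle phosphorylase causes McArdle disease.

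The sequences before the starts of the 4 genes are shown because all 4 differed in the same direction between the libraries on the main library scale, as given below, while the sequences themselves are of different kinds. They come from RefSeq (GRCm38.p6) and run 5′ to 3′ on the gene's strand, starting 250 bases before the annotated start and stopping where the outermost annotated transcript of the gene begins. Capitals mark the E-box letters CANNTG, which read the same on both strands and are known as the motif of myogenic basic helix-loop-helix factors. Pygm lies at chr19:6384158-6384407 on the + strand, Phkg1 at chr5:129879135-129879338 on the - strand, Phkb at chr8:85840738-85840852 on the + strand and Ppp1r3a at chr6:14755275-14755524 on the - strand.
Pygm: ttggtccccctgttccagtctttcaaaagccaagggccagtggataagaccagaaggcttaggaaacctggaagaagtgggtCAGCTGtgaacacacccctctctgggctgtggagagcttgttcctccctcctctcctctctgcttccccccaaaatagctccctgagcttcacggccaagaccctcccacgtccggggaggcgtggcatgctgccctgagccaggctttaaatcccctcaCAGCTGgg
Phkg1: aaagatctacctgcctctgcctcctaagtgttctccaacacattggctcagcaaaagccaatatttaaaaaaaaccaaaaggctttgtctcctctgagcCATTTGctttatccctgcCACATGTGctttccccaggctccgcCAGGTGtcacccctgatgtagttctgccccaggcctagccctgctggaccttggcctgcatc
Phkb: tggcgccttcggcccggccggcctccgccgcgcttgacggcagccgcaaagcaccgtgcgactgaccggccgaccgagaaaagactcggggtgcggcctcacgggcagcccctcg
Ppp1r3a: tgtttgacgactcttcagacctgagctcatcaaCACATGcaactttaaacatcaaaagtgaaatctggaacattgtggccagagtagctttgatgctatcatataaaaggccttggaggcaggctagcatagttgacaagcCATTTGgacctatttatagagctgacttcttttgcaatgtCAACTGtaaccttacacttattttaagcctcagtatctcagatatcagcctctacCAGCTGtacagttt

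Over the full 250 bases the letters CANNTG occurred 5 times before Phkg1 (2 of them overlapping), 4 times before Ppp1r3a, 2 times before Pygm and 0 times before Phkb. At least 1 occurrence was found in 66.2% of the 32851 windows of that length in the same RefSeq table, and 3 or more in 12.2%, so a match alone is common. The letters TATAAA, searched on both strands, occurred 2 times before Ppp1r3a and 0 times before the other 3 members, against at least once in 12.4% of all windows. Phkb stood apart in its CG dinucleotides, with 34 in the window, against 4 for Pygm, 1 for Phkg1, 1 for Ppp1r3a and a median of 6 over all windows. All these counts are over 250 bases, of which 204 are printed for Phkg1 and 115 for Phkb. The bases not printed lie past the outermost annotated start of the gene. The printed part of Phkg1 holds 4 of its 5 occurrences of CANNTG. These matches are letters and not binding sites.

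The listed genes held 4248818 reads in treated mRNA, 125236 in untreated mRNA, 1664122 in treated footprints and 3349015 in untreated footprints. The untreated mRNA library therefore limits the precision of the mRNA ratios of the 4 members. Reads of a library were scaled by the trimmed mean of M values (TMM), which sets the library scale from the bulk of the listed genes. Ttn, which encodes titin, took 26.5% of the listed reads in treated mRNA and 8.67% in untreated mRNA, which makes the choice of scale matter. Dmd (NM_007868), the gene on which the vector acts, had 1959 reads in treated and 25 in untreated mRNA, and 183 in treated and 80 in untreated footprints. Its scaled ratios were 3.63 (95% interval 2.45 to 5.63) in mRNA and 4.74 (3.62 to 6.24) in footprints. Of 6 fast fibre markers 5 are listed, and they held 17.0% of treated and 20.4% of untreated mRNA reads, and 24.02% of treated and 22.1% of untreated footprints. With TMM 3 of these 5 were called higher and 0 lower in mRNA, against 31.8% and 24.8% of 996 genes (calls are defined below). The 3 were Atp2a1 at 2.11, Actn3 at 2.03 and Myh4 at 1.53 (whose reads may be split with similar myosin genes). With TMM they went the same direction as the members, while Myh1 went the other way at 0.694 and Pvalb had 1.48, both uncalled. Other scales move all mRNA ratios together, and marker calls are given with TMM only. With the authors' constants the log2 mRNA ratio of Pygm is -0.10, and Myh4, lower than Pygm with TMM, is lower there too. Footprints of these 5 gave 1 call of higher, Pvalb at 2.75, and 1 of lower, Actn3 at 0.642, against 19.9% and 26.2% of 999 genes. The part of fibre type in the ratios of the members was not tested. Each condition had 1 library of each kind, so conditions were not tested against each other, and all intervals cover counting error only.

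Pygm, which encodes the enzyme that cuts glycogen, was the most abundant of the 4 in reads and had the smallest difference between conditions. Its mRNA had 36446 reads in the treated library and 980 in the untreated library. Its share of all listed mRNA reads was 0.858% in treated muscle (exact binomial 95% interval 0.849 to 0.867) and 0.783% in untreated muscle (0.734 to 0.833). Its footprints had 17097 reads in the treated and 21660 in the untreated library, or 1.03% (1.01 to 1.04) of treated and 0.647% (0.638 to 0.655) of untreated footprints. Both treated libraries therefore held the larger share. After TMM scaling the treated library was 1.73-fold higher in mRNA (1.62 to 1.84) and 1.63-fold higher in footprints (1.60 to 1.67). The translation efficiency ratio, which divides the footprint by the mRNA ratio, was 0.948 (0.887 to 1.01), an interval that held 1. The mRNA ratio of Pygm depends on the scale, as the authors' normalized read counts were 6771.2 in treated and 7232.8 in untreated mRNA, while their footprint values were 8078.3 in treated and 5967.8 in untreated muscle. The log2 mRNA ratio was 0.79 with TMM and -0.10 with the constants behind those deposited values.

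Phkg1 encodes the catalytic gamma subunit of muscle phosphorylase kinase, the part that transfers phosphate to phosphorylase. It had 1752 reads in treated and 23 in untreated mRNA, and 1493 reads in treated and 861 in untreated footprints. The treated footprint library thus held more Phkg1 reads than the untreated one although it had fewer reads in all. The scaled ratio was 3.53 (2.35 to 5.59) in mRNA and 3.59 (3.30 to 3.91) in footprints. Its translation efficiency ratio was 1.04 (0.685 to 1.57), a wide interval that follows from the 23 untreated mRNA reads.

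Phkb encodes the regulatory beta subunit of the same kinase, a target of protein kinase A. It had 2938 reads in treated and 39 in untreated mRNA, and 1350 reads in treated and 1105 in untreated footprints. Both treated libraries held the higher scaled level, by 3.49-fold (2.55 to 4.92) in mRNA and 2.53-fold (2.33 to 2.74) in footprints. The translation efficiency ratio was 0.733 (0.530 to 1.01), with 1 inside the interval. The mRNA ratios of the beta and gamma subunits were close together, but their footprint intervals did not overlap.

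Ppp1r3a, whose product holds protein phosphatase 1 on glycogen and at the sarcoplasmic reticulum, had the largest mRNA difference of the 4. It had 6213 reads in treated and 55 in untreated mRNA, and 2024 reads in treated and 1234 in untreated footprints. The scaled ratio was 5.24 (4.02 to 6.96) in mRNA and 3.40 (3.16 to 3.65) in footprints, so the treated libraries were higher on both levels. The translation efficiency was 1.53-fold lower in treated muscle (1.16 to 2.01). That call was made under TMM alone of the 6 library scalings, and the log2 value lay between -0.61 and 0.00 across them.

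**Figure D1:**
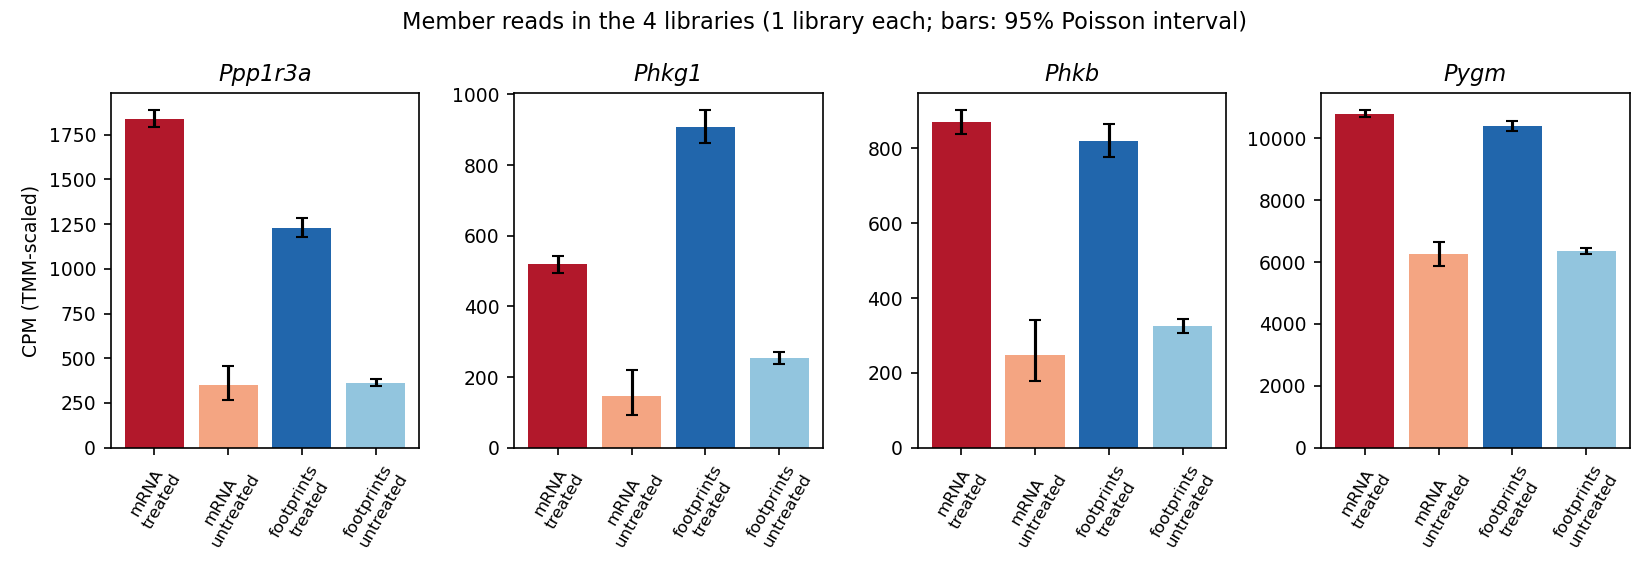
Read counts as CPM after TMM scaling (y axis, from 0) of the 4 genes in treated and untreated mRNA and treated and untreated footprints, 1 library each, with 95% Poisson intervals. In every panel both treated bars stand above their untreated bars (for Pygm mRNA not with the authors' constants), most for Ppp1r3a mRNA at 1839 CPM in treated and 351 CPM in untreated muscle.

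**Figure D2:**
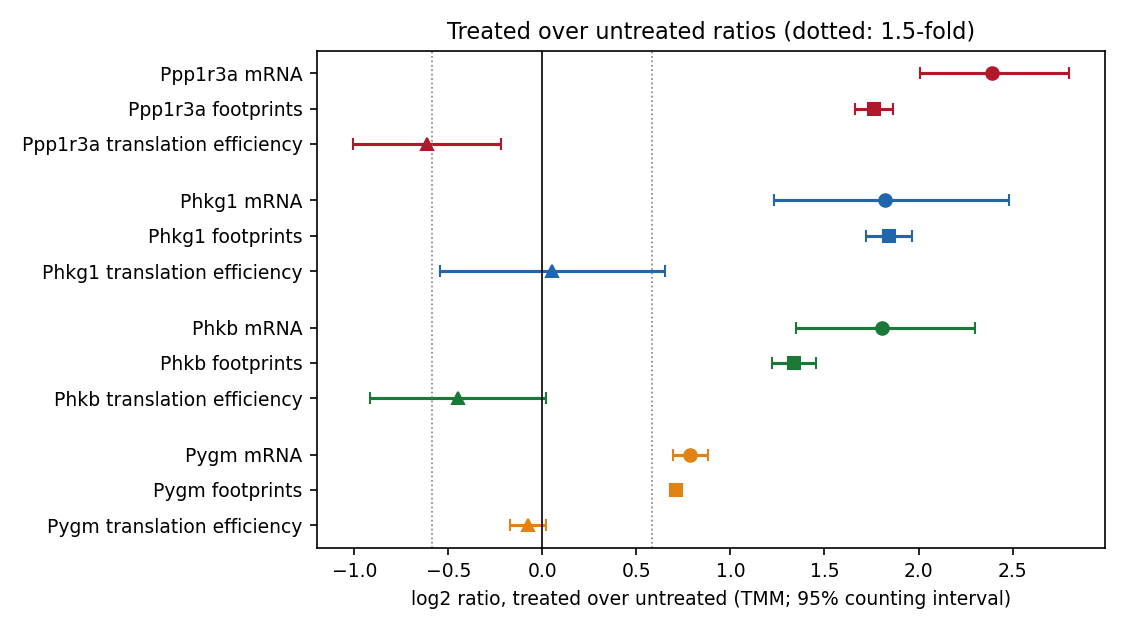
Log2 ratios of treated over untreated muscle with TMM (x axis) for mRNA, footprints and translation efficiency of each gene, with 95% counting intervals and dotted lines at 1.5-fold. The mRNA and footprint intervals of all 4 genes lie above 0, which for Pygm mRNA turns round with the authors' constants, and of the translation efficiency intervals the one of Ppp1r3a lies below 0.

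Calls of higher or lower needed a scaled difference of at least 1.5-fold, an interval without 1 and at least 50 reads over the pair of libraries. With TMM all 4 members were called higher in treated mRNA, where 31.8% of the 996 genes with enough reads were called higher and 24.8% lower. All 4 were also called higher in treated footprints, where 19.9% of 999 genes were called higher and 26.2% lower. Both calls together were made for 11.2% of 995 genes. In translation efficiency 0 members were called higher, against 26.0% of 995 genes, and 1 was called lower, against 31.9%. From the highest ratio down, Ppp1r3a stood at rank 24, Phkg1 at 74, Phkb at 76 and Pygm at 271 of the 996 genes in mRNA. In footprints Phkg1 stood at rank 16, Ppp1r3a at 20, Phkb at 43 and Pygm at 158 of 999. The members were picked as a pathway with earlier results of these libraries known, so these counts describe them and are no test of the pathway.

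The 4 genes can be set against each other within a library, where any library scale and any gene length drop out of the treated to untreated comparison. Against Pygm, Ppp1r3a mRNA was 3.04-fold higher in treated muscle (2.31 to 4.07), with 17.0 reads per 100 Pygm reads in treated and 5.61 in untreated mRNA. Phkg1 mRNA was 2.05-fold higher relative to Pygm (1.35 to 3.26) and Phkb mRNA 2.03-fold (1.47 to 2.87). In footprints the same ratios were 2.08 (1.93 to 2.24) for Ppp1r3a, 2.20 (2.01 to 2.40) for Phkg1 and 1.55 (1.42 to 1.68) for Phkb. All 3 regulators were thus higher relative to the enzyme in both kinds of treated library, whichever scale is used.

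Among the regulators the mRNA ratios could not be told apart at this depth. Phkg1 relative to Phkb was 1.01 (0.587 to 1.78) in mRNA, Ppp1r3a relative to Phkb 1.4995 (0.966 to 2.31) and Ppp1r3a relative to Phkg1 1.48 (0.867 to 2.46), and each of these intervals holds 1. Footprints separated the kinase subunits, since Phkg1 was 1.42-fold higher relative to Phkb in treated muscle (1.26 to 1.60), with 1493 and 1350 reads in treated and 861 and 1105 in untreated footprints. Ppp1r3a footprints were 1.34-fold higher relative to Phkb (1.21 to 1.495), and relative to Phkg1 the ratio was 0.946 (0.846 to 1.06). In translation efficiency 1 of the 6 pairs had an interval without 1, namely Ppp1r3a relative to Pygm at 0.690 (0.521 to 0.914).

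Within a condition, footprints per mRNA were set against the median listed gene on the log2 scale. Phkg1 lay 0.82 above that median in treated muscle (0.72 to 0.92) and 0.75 above it in untreated muscle (0.16 to 1.35). Pygm lay at -0.04 (-0.07 to -0.01) in treated and 0.02 (-0.07 to 0.12) in untreated muscle, close to the median gene in both. Phkb lay at -0.07 (-0.16 to 0.02) in treated and 0.36 (-0.09 to 0.82) in untreated muscle. Ppp1r3a lay at -0.57 (-0.64 to -0.49) in treated and 0.03 (-0.35 to 0.42) in untreated muscle. The gamma subunit gene thus held the most footprint reads per mRNA read of the 4 in both conditions, relative to the median gene. The untreated intervals overlap, however, for Phkg1 and Phkb and for Phkg1 and Ppp1r3a. No transcript or coding lengths were used, so this order of the 4 genes is not an order of ribosome loading.

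Library scaling moved the ratios of all genes together. Over all genes the median log2 mRNA ratio was 0.06 under TMM and 0.04 under DESeq2 size factors. It was -0.60 when scaled by listed totals and -0.34 by the upper quartile. It was -0.25 when the total left out the 20 top genes, and -0.82 under the authors' constants. Genes called higher made up 56.2% of the called mRNAs under TMM, 55.6% under DESeq2 size factors and 24.2% under listed totals. They made up 35.7% under the upper quartile, 40.7% when the 20 top genes were left out and 16.8% under the authors' constants. Ppp1r3a, Phkg1 and Phkb were called higher in mRNA and in footprints in all 6 settings. Their lowest log2 mRNA ratios were 1.51, 0.94 and 0.92. Pygm mRNA was called higher in 2 of the 6 settings, TMM and DESeq2 size factors, and Pygm footprints in 5, with the authors' constants the exception at a log2 ratio of 0.44. Relative to the median gene, which a change of scale leaves nearly as it is, the log2 mRNA ratio with TMM was 2.33 for Ppp1r3a, 1.76 for Phkg1, 1.75 for Phkb and 0.73 for Pygm. Phkg1 belongs to the 250 genes with 18 to 25 untreated mRNA reads, a class whose median log2 mRNA ratio was 0.27, and Phkb to the class with 25 to 49 reads, with a median of -0.02. Pygm and Ppp1r3a belong to the class with the most untreated reads, with a median of -0.09.

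**Figure D3:**
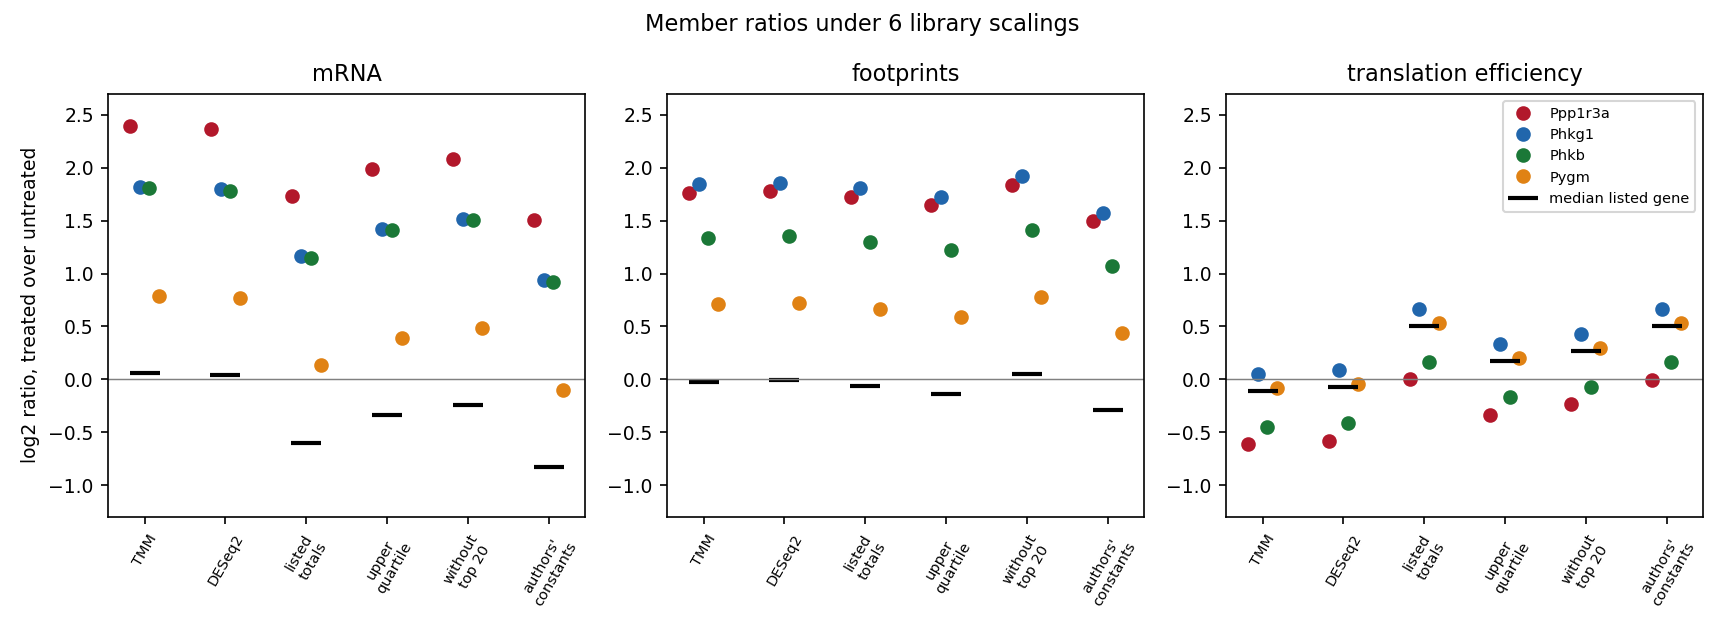
Log2 ratios of treated over untreated muscle (y axis) of the 4 genes under 6 library scalings (x axis), for mRNA, footprints and translation efficiency, with the median listed gene as a black bar. The order of the 4 genes is kept in each panel while all values shift, and Pygm mRNA runs between 0.79 with TMM and -0.10 with the authors' constants.

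Other genes of glycogen metabolism came from a list of 54 written from textbook roles, of which 21 are in the table, the 4 members included. Without the members, 6 of 17 were called higher and 2 lower in mRNA, with a median log2 ratio of 0.07 against 0.06 over all genes. In footprints 4 of the 17 were called higher and 5 lower, with a median of 0.18 against -0.02 over all genes. In translation efficiency 4 were called higher and 6 lower, with a median of -0.40 against -0.11. Over all genes 31.8% were called higher and 24.8% lower in mRNA, 19.9% and 26.2% in footprints, and 26.0% and 31.9% in translation efficiency. The calls on the rest of the list went both ways in each comparison.

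Gaa, the lysosomal enzyme that degrades glycogen, was 3.14-fold higher in mRNA (1.98 to 5.31) with a footprint ratio of 1.17, and its translation efficiency was called lower in all 6 scalings. Pgm2 (NM_028132, the phosphoglucomutase now named Pgm1) had ratios of 1.05 in mRNA and 1.10 in footprints and was not called with TMM. Pgm5, a relative of phosphoglucomutase known from muscle adhesion sites and not from glycogen breakdown, was lower in mRNA at a ratio of 0.471 and in footprints at 0.325, in all 6 scalings.

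On the synthesis side 3 genes are listed. Gys1, the muscle glycogen synthase, had 1750 reads in treated and 99 in untreated mRNA, and 1048 in treated and 1910 in untreated footprints. Its ratios of 0.820 (0.669 to 1.01) in mRNA and 1.14 in footprints were not called with TMM, and its mRNA was called lower in 4 of the 6 scalings. Gyg, which encodes glycogenin, the primer of the glycogen particle, was 1.82-fold higher in treated mRNA (1.23 to 2.83), a call lost in 4 scalings where the log2 ratio fell as low as -0.02. Its footprint ratio of 0.541, from 204 treated and 780 untreated reads, and its translation efficiency ratio of 0.304 (0.199 to 0.463) were called lower in all 6. Ugp2, which makes the glucose donor for synthesis, was not called in any comparison with TMM.

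The catalytic subunits that Ppp1r3a targets did not share its footprint difference. Ppp1ca had 87 footprints in treated and 840 in untreated muscle, a ratio of 0.214, and Ppp1cc had 64 in treated and 285 in untreated muscle, a ratio of 0.465. Both were called lower in footprints in all 6 scalings. Ppp1cb had a footprint ratio of 1.25, not called, beside an mRNA ratio of 4.06 (2.59 to 6.75). The mRNA ratio was 1.59 (0.983 to 2.75) for Ppp1ca, not called, and 1.83 (1.08 to 3.36) for Ppp1cc, called higher in 2 of the 6 scalings. All 3 catalytic subunit genes were called lower in translation efficiency in all 6 scalings, where 31.9% of all genes were called lower with TMM. The ratios were 0.140 (0.0827 to 0.236) for Ppp1ca, 0.265 (0.147 to 0.477) for Ppp1cc and 0.316 (0.199 to 0.503) for Ppp1cb. Their untreated mRNA counts were 17, 14 and 19 reads, and these genes have closely similar coding sequences between which footprints may be split. The class of listed genes with 14 to 18 untreated mRNA reads had a median log2 translation efficiency ratio of -0.32.

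The list also held 3 upstream kinase genes and 3 glucose entry genes. Prkaca, the protein kinase A catalytic subunit that activates phosphorylase kinase, had 93 footprints in treated and 1143 in untreated muscle, a ratio of 0.168, beside an mRNA ratio of 1.02 (0.678 to 1.61). Its footprints and translation efficiency were called lower in all 6 scalings. Prkar1a, a regulatory subunit of the same kinase, and Prkag3, a regulatory subunit of AMP-activated kinase in glycolytic muscle, were called higher in translation efficiency in all 6, with ratios of 1.58 (1.05 to 2.36) and 1.76 (1.13 to 2.75). Neither was called in mRNA with TMM, but Prkar1a mRNA was called lower in 4 scalings and Prkag3 mRNA in 2. Slc2a4, the insulin-responsive glucose transporter, was higher in mRNA at 2.67-fold (1.77 to 4.23) and in footprints at 1.98-fold, the mRNA call being lost with the authors' constants. Hk2, the main hexokinase of muscle, was 2.37-fold higher in footprints, beside an mRNA ratio of 0.792 (0.618 to 1.03). That mRNA ratio was not called with TMM but was called lower in 4 of the 6 scalings. Translation efficiency of Hk2 was called higher in all 6, at a ratio of 3.01 (2.32 to 3.91) with TMM. Hk1, the hexokinase of most other tissues, was lower in mRNA at a ratio of 0.229 (0.130 to 0.429), from 74 reads in treated and 15 in untreated muscle.

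**Figure D4:**
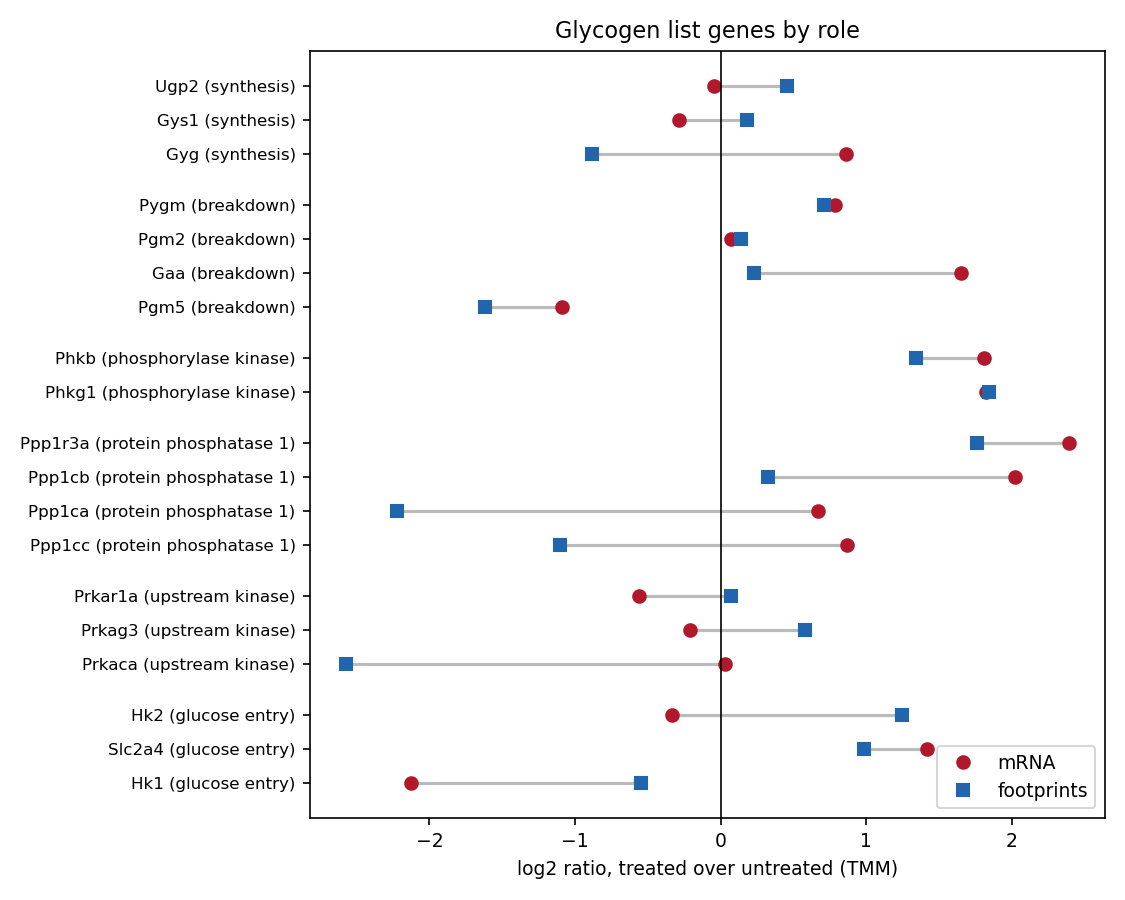
Log2 ratios of treated over untreated muscle with TMM (x axis) for 19 of the 21 listed genes of the glycogen list by role, mRNA as circles and footprints as squares, joined by a line. Phkg1, Phkb, Ppp1r3a and Pygm have both marks above 0, as have Gaa, Slc2a4, Ppp1cb and Pgm2. Ppp1ca, Ppp1cc, Gyg and Prkaca (mRNA at 0.03) have footprints below 0 and mRNA above it. Hk2, Gys1, Ugp2, Prkar1a and Prkag3 have the opposite, and Hk1 and Pgm5 have both marks below 0. The mRNA sign of Pygm, Pgm2, Ppp1ca, Ppp1cc, Gyg and Prkaca turns with the authors' constants. So does the footprint sign of Pgm2, Gaa, Gys1 and Prkar1a.

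**Figure D5:**
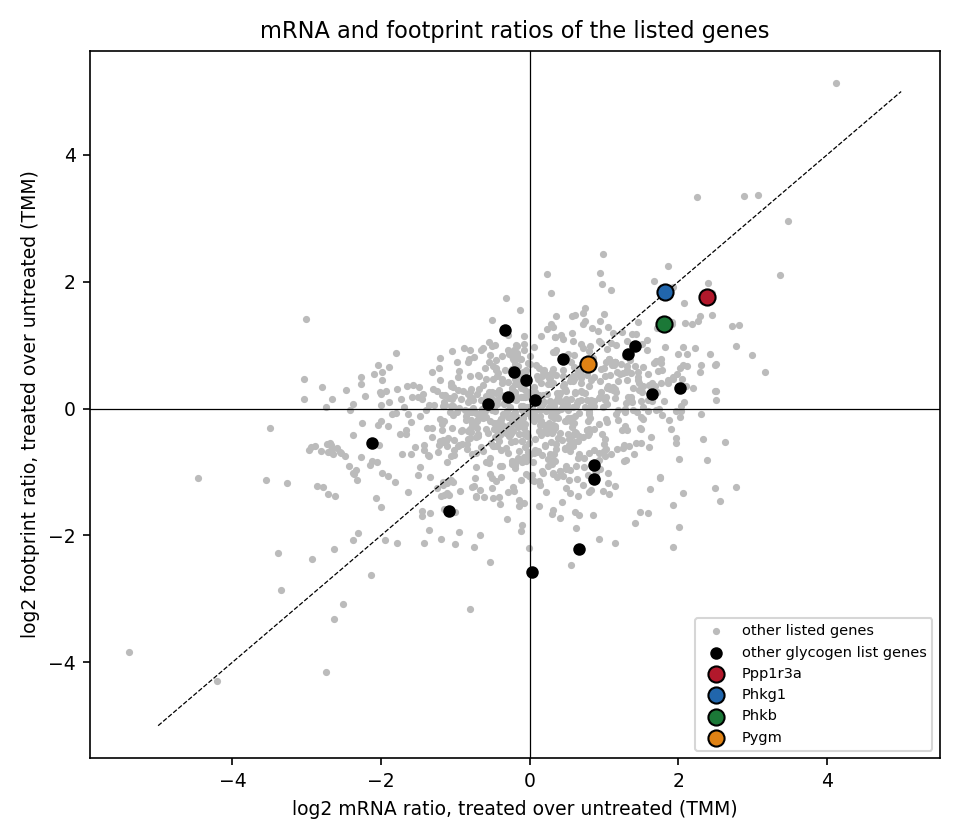
Log2 footprint ratio (y axis) against log2 mRNA ratio (x axis), treated over untreated with TMM, for the 995 genes with at least 50 reads in each pair of libraries. The dashed line marks equal ratios, and the 4 members lie in the upper right, with Phkg1 on the line and Ppp1r3a below it.

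Genes with the most similar pair of ratios were found by the distance over the log2 mRNA and log2 footprint ratio among 995 genes, that is over 2 contrasts of 4 libraries. Nearest to Pygm were Idh2 at a distance of 0.04, Lpl at 0.05 and Tubb2c at 0.10. Nearest to Phkg1 were the myosin light chain kinase genes Mylk2 at 0.13 and Mylk4 at 0.32, with Asb5 between them at 0.22. Phkb had Txlnb at 0.05 and B230120H23Rik at 0.11. Ppp1r3a was nearest to Hfe2 at 0.03, Acacb at 0.08 and Plin4 at 0.09. Distances between the members ran from 0.51 between Phkg1 and Phkb to 1.92 between Pygm and Ppp1r3a. They cannot be weighed against the distances above, because those genes were picked as the closest among the 995.

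Marker genes of other cells differed between the same libraries. Of 6 macrophage markers 4 are listed, and they held 0.0165% of treated and 0.125% of untreated mRNA reads, and 0.0556% of treated and 0.125% of untreated footprints. With TMM these 4 were called lower in both mRNA and footprints, where 24.8% and 26.2% of all genes with enough reads were called lower. The 6 fibroblast markers, all listed, held 0.285% of treated and 2.09% of untreated mRNA reads, and 0.547% of treated and 2.64% of untreated footprints. The collagen genes Col1a1, Col1a2 and Col3a1 were the 3 called lower in mRNA. Dcn was called higher at a ratio of 3.02, and Lum and Fn1 had ratios of 1.16 and 0.997. Footprints of 5 of the 6 were called lower and 0 higher, with Dcn not called at 1.46. The 4 listed of 6 slow fibre markers held 0.220% of treated and 0.210% of untreated mRNA reads, and 0.738% of treated and 0.898% of untreated footprints. These slow fibre genes went opposite ways in mRNA, with Myh7 4.07-fold higher, Casq2 22.0-fold lower and Tnnt1 42.0-fold lower, and Tnnc1 had too few reads for a call. Tnnt1 had 19 reads in treated and 37 in untreated mRNA. In footprints all 4 ratios lay below 1. Casq2 at 0.469 and Tnnt1 at 0.0701 were called lower, while Myh7 at 0.911 and Tnnc1 at 0.821 were not called. None of the 1000 listed genes was at 0 in any library, so the same for the markers says nothing about the cells. The part of these cells in the ratios of the 4 genes was not tested, and in whole muscle fewer cells of a type and less RNA per cell cannot be told apart. Sumf2 overlaps the span of Phkg1 in RefSeq, and Itfg1 and 2 pseudogenes overlap that of Phkb, while 0 genes overlap Pygm or Ppp1r3a. Whether reads were counted by strand is not stated in the labels or file headers.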

How the data were processed

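The deposited table lists 1000 genes with raw read counts, which are whole numbers per the file headers and the values, and with the authors' normalized read counts. In each library 1 constant turns the count into the deposited normalized value (within 0.15 in at least 99.9% of genes). The values that the authors normalized before deposit were read as CPM, a scale inferred from them and not stated. The submitters' processing notes name Trimmomatic, STAR, edgeR and mm9 but give no role or version. Genes are ordered by their untreated mRNA count, the lowest being 14, so a gene scarce in that library would not be listed.

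Libraries were scaled by TMM (edgeR 4.0.16, R 4.3.3). Ratios of treated over untreated counts have exact conditional binomial 95% intervals. Translation efficiency used 0.5 added to each count and a normal interval on the log scale. Ratios between 2 members have exact conditional intervals for an odds ratio (SciPy 1.17.1) and were added after the data were seen. The ratio and call steps were tested on simulated Poisson counts. That simulation held no spread between animals or from PCR and did not cover the choice of scale. With 1 library per group no edgeR or DESeq2 test was run, and nothing shows whether the libraries hold separate animals. PCR reads without molecular identifiers are not independent molecules. Also tried were 5 further scalings (1 of them DESeq2 1.42.0 size factors), read minimums of 0 and 200, a 2-fold threshold and 5 added to each count.

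The members and lists were chosen with earlier results of these data known. Named genes are the 4 members, Dmd, glycogen list genes that were called in any comparison, and the 3 nearest genes per member (a few of these are not reported here), with a few uncalled list genes (Gys1, Ugp2, Pgm2) named after their values were seen. Footprint density per codon and classes of protein length were planned but are not reported, as no protein lengths were used here.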

Additional observations from a re-analysis of the deposited data

How the results depend on the processing

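The mRNA and footprint calls of Ppp1r3a, Phkg1 and Phkb kept their direction and call in all 8 alternatives that bear on them. The log2 mRNA ratio of Pygm was -0.10 with the authors' constants, and it kept its sign but lost the call under listed totals (0.13), the upper quartile (0.39), the total that leaves out the 20 top genes (0.48) and at the 2-fold threshold (0.79). Its footprint ratio lost the call with the authors' constants (0.44) and at 2-fold (0.71). The log2 translation efficiency ratio of Ppp1r3a lost its call with DESeq2 size factors (-0.58), 5 added to each count (-0.50), the upper quartile (-0.33), the total that leaves out the 20 top genes (-0.24), the authors' constants (-0.0030), listed totals (0.00018) and at 2-fold (-0.61). That of Phkg1 was called higher with the listed totals (0.67) and the authors' constants (0.66).

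Over all listed genes, the count higher in mRNA was 317 under TMM, 148 under listed totals, 205 under the upper quartile and 110 under the authors' constants. The count lower in mRNA was 247 under TMM, 464 under listed totals, 543 with the authors' constants and 160 at a minimum of 200 reads. In footprints 199 genes were higher with TMM, 114 with the authors' constants and 81 at 2-fold, and 262 were lower with TMM and 143 at 2-fold. In translation efficiency 259 were higher and 317 lower with TMM, against 444 and 157 with the listed totals and 444 and 158 with the authors' constants.

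Of the 21 glycogen list genes, 10 were higher in mRNA with TMM and 5 with the authors' constants. The number lower in mRNA was 2 under TMM, 7 under listed totals, 9 under the authors' constants, 5 under the upper quartile, 5 when the 20 top genes were left out and 0 at a minimum of 200 reads. In footprints 8 were higher with TMM and 4 at 2-fold. In translation efficiency 4 were higher under TMM, 9 under listed totals, 9 under the authors' constants, 7 under the upper quartile, 7 when the 20 top genes were left out and 2 at 2-fold.

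No paired analysis was possible because each group has 1 library, which also leaves no replicate to leave out. Footprint density per codon was not run. The 23 to 55 untreated mRNA reads of Phkg1, Phkb and Ppp1r3a set the width of their mRNA and translation efficiency intervals.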
